A study of Arabidopsis thaliana with 2 samples.

Results

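The CBP60 family of Arabidopsis thaliana comprises 8 genes, CBP60A (AT5G62570), CBP60B (AT5G57580), CBP60C (AT2G18750), CBP60D (AT4G25800), CBP60E (AT2G24300), CBP60F (AT4G31000), CBP60G (AT5G26920) and SARD1 (AT1G73805). They were picked by gene identifier out of 27416 listed genes, and all 8 were present with reads in both libraries. In the RefSeq annotation of assembly TAIR10.1 the same 8 genes, and no other, are noted as carrying the calmodulin binding protein-like domain. Profiles of mRNA were sequenced from wild-type Columbia seedlings at day 10 after germination, in both groups without any transgene or mutation named. One group received flg22 at 1 µmol/L for 4 h and the control did not. The peptide flg22 is taken from bacterial flagellin and is sensed by the receptor kinase FLS2. The 3 biological replicates of each group had been pooled into 1 library, which leaves every difference without a replicate check, and none was tested here. Seedlings hold many cell types, and more cells of a type cannot be told apart from more RNA per cell.

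CBP60 proteins are plant transcription factors, and most of them bind calmodulin, the small protein that relays calcium signals. CBP60G and SARD1 both bind the promoter of ICS1, the gene of the enzyme that makes the precursor of the defence hormone salicylic acid. A plant that lacks both genes accumulates little of the hormone after infection. CBP60G binds calmodulin near its N terminus, SARD1 acts without calmodulin, CBP60A is known as a restraint on immunity, and CBP60B as an activator of immune genes.

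The genes are related but far from identical, which matters for how reads were divided among them. Over their coding DNA the closest pairs were CBP60B with CBP60D, identical at 82.4% of aligned bases, and CBP60E with CBP60F, at 82.1%. CBP60G and SARD1 were identical at 63.8%, and the lowest value of the 28 pairs was 59.3%, for CBP60D with CBP60G. The 60 coding bases that vary least among all members are printed here to show how far they differ even there, with capitals for the 32 bases that all 8 genes share, from the RefSeq TAIR10.1 sequence.
CBP60A: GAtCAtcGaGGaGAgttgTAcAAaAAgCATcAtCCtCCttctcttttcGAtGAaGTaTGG
CBP60B: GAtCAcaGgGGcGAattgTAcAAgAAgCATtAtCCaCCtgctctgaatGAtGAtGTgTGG
CBP60C: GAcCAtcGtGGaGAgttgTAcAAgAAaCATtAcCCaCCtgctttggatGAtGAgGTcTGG
CBP60D: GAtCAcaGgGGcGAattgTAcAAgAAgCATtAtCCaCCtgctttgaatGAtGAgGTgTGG
CBP60E: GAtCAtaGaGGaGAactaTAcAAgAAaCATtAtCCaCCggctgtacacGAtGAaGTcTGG
CBP60F: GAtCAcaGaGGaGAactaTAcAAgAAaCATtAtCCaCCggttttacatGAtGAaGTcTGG
CBP60G: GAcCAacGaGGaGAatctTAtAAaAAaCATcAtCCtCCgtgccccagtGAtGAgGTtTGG
SARD1: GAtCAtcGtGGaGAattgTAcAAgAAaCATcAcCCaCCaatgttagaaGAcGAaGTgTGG
The stretch starts at base 673 of the coding sequence in CBP60G and at base 694 in SARD1, and the fixed bases are spread as single bases or short runs. No stretch of 50 bases from the exons of 7 members was found a second time in the genome, and in CBP60B 14 of 2089 such stretches were, so reads of at least that length could be assigned to single members nearly throughout. The sources used here do not give the read length.

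Library totals, here the sums of deposited reads over all listed genes, were 24621440 reads with flg22 and 21414567 in the control. Levels are in RPKM as deposited, which are reads scaled for the listed gene length and for the library total. Shoot markers, taken as a check of the labelled tissue, were present at summed levels of 5171 RPKM with flg22 and 18487 RPKM in the control. By the measure of the next paragraph, 7 of 8 were at least 2-fold lower with flg22, beside 8.27% of genes past its filter. Root markers summed to 609 RPKM with flg22 and 817 RPKM in the control, and 1 of 8 was at least 2-fold lower by that measure. This marker, AT5G47450, passed the filter only through its control level, so it had to differ. Counted in reads per library total, CASP2 was 2.05-fold lower and EXPA7 2.03-fold higher with flg22. No marker of either list was at 0 in either library, and the part of these differences in the results below was not tested.

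Of the 8 family genes, 4 stood 2-fold or more higher with flg22 and none 2-fold or more lower. These counts use the log2 ratio of flg22 over control after 1 RPKM is added to each level, among genes that average 1 RPKM or more over the libraries. All 8 members passed this filter, SARD1 only through its level with flg22. SARD1 thus had to be higher with flg22, and the counts that include it are descriptions. By the same measure 11.3% of the 18724 genes past the filter were at least 2-fold higher and 8.27% at least 2-fold lower. The median log2 ratio was 0.86 over the family and -0.03 over all genes past the filter. The 4 genes were CBP60G, SARD1, CBP60A and CBP60F, and the last of them lay just past the limit. At a limit of 4-fold, CBP60G and SARD1 were the 2 members that remained, beside 4.17% of all genes past the filter.

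**Figure D1:**
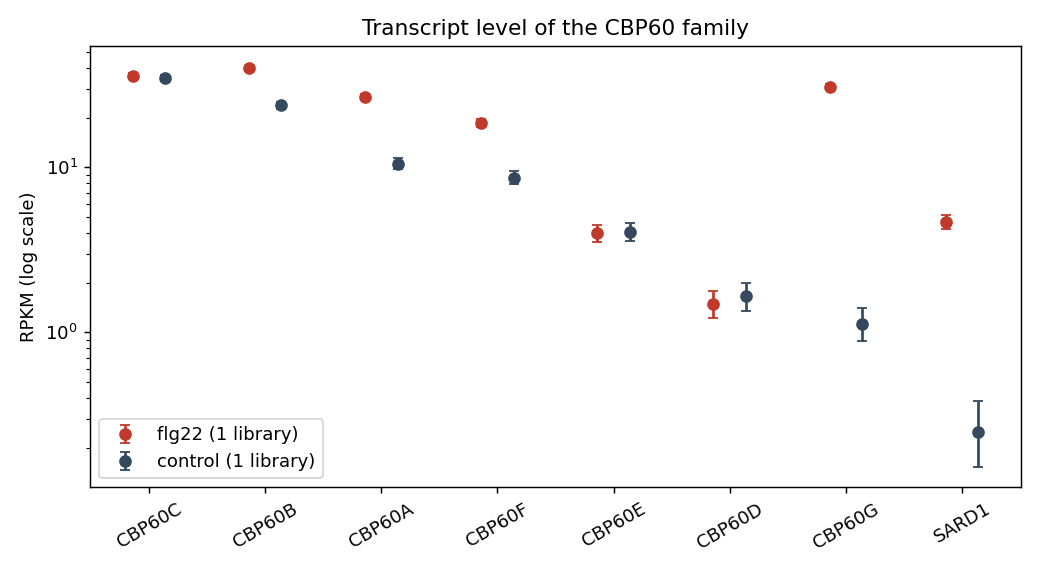
Transcript level of each CBP60 family gene in RPKM on a log axis, with the flg22 library left and the control library right for each gene, genes ordered by control level. Points are single libraries and bars are exact 95% counting intervals; CBP60G stood at 30.7 RPKM with flg22 against 1.13 RPKM in the control, while CBP60C, CBP60D and CBP60E had overlapping intervals.

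CBP60G and SARD1 showed the largest folds of the family. CBP60G was counted with 2319 reads in the flg22 library and 74 in the control library, equal to 30.7 RPKM with flg22 and 1.13 RPKM in the control. Scaled to library totals, with no added constant, CBP60G was 27.3-fold higher with flg22, with an exact 95% counting interval of 21.6 to 34.8. Such intervals, given in parentheses from here on, cover counting error within these libraries and not the difference between plants. Only 0.684% of genes past the filter had a higher log2 ratio than CBP60G, whose value was 3.90.

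SARD1 was counted with 431 reads with flg22 and 20 in the control, equal to 4.67 RPKM with flg22 and 0.249 RPKM in the control. It was 18.7-fold higher with flg22 (11.985 to 31.0). The added constant pulls its log2 ratio down to 2.18, because the control level lies under 1 RPKM. The folds of CBP60G and SARD1 could not be separated at this depth: CBP60G's was 1.45 times that of SARD1, with an interval of 0.831 to 2.44. Their levels were far apart in each library, with CBP60G 4.52 times SARD1 in the control (2.73 to 7.83). In the TAIR10.1 annotation the 3′ end of SARD1 overlaps AT1G73790 on the other strand by 640 bases. SARD1 spans 4459 bases there but has a deposited length of 3751, so the gene model behind its reads, and how far that model overlaps AT1G73790, is not known. AT1G73790 had 146 reads with flg22 and 129 in the control, and the sources used here do not say whether reads were counted by strand.

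The 250 bases before the annotated starts of CBP60G and SARD1 are printed because these genes stood together at the top of the family. The first is chr5:9475429-9475678 on the plus strand and the second chr1:27749249-27749498 on the minus strand, both of TAIR10.1 from RefSeq and written 5′ to 3′ toward the gene. Capitals mark any match, on either strand, to the WRKY-bound W-box core TTGAC, the TGA factor motif TGACG, the core CGCG of CAMTA factor sites, or GAAATTT, a motif linked to CBP60G and SARD1 binding.
CBP60G: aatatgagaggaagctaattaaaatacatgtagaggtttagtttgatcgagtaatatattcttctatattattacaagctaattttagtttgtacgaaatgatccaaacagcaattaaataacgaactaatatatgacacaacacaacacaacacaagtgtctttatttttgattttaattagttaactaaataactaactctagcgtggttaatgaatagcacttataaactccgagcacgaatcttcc
SARD1: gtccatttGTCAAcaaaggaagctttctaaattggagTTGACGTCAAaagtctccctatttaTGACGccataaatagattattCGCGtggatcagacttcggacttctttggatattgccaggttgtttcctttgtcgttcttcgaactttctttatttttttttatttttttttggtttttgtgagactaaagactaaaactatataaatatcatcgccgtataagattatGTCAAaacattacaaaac
The SARD1 window holds 4 matches to TTGAC, the first beginning at -242 and the last at -18, counted from the gene start. It also holds 3 matches to TGACG, of which those at -212 and -209 overlap each other and W-box cores, and 1 match to CGCG. In CBP60G none of the 4 motifs was found in this window, which says only that these letters are not in these 250 bases. Of 26709 promoters of the same length, 45% hold TTGAC, 18.6% TGACG, 10.1% CGCG and 12.5% GAAATTT. Among the other members, CBP60F has 2 matches to TTGAC and 1 to CGCG, CBP60A and CBP60C each have 1 match to GAAATTT, and CBP60B, CBP60D and CBP60E have none of the 4 in their windows. The windows of CBP60B and CBP60C reach into a neighbouring gene.

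CBP60A, the member known as a restraint on immunity, was also higher with flg22. It had 1955 reads with flg22 and 672 in the control, which correspond to 26.7 RPKM with flg22 and 10.5 RPKM in the control. CBP60A was 2.53-fold higher (2.32 to 2.77), and 8.59% of genes past the filter had a higher log2 ratio than its 1.26. The difference in level was 16.1 RPKM, against 29.6 RPKM for CBP60G. Its place behind CBP60G depends on the lengths used, since with joined exon lengths of the reference CBP60B came next after CBP60G, at 21.4 RPKM, and CBP60A again had 16.1 RPKM. An annotated gene on the opposite strand, AT5G62573, overlaps CBP60A over 246 bases and is not among the genes of the deposited table.

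CBP60B had 3335 reads with flg22 and 1739 in the control, or 39.7 RPKM with flg22 and 23.8 RPKM in the control. It was 1.67-fold higher with flg22 (1.57 to 1.77), short of 2-fold, although its interval lies wholly above 1. Its log2 ratio was 0.71, and 16.2% of genes past the filter had a higher one. In RPKM the difference for CBP60B was 15.9, close to that of CBP60A, because its control level was higher.

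CBP60F had 1282 reads with flg22 and 523 in the control, or 18.5 RPKM with flg22 and 8.66 RPKM in the control. It was 2.13-fold higher (1.92 to 2.36), with a log2 ratio of 1.01, and its interval holds 2. CBP60F was thus the member just inside the 2-fold limit, and CBP60B the member just outside it.

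The remaining members, 3 in number, were near equal in the 2 libraries. CBP60C, a strongly expressed member, had 2827 reads with flg22 and 2392 in the control, or 35.9 RPKM with flg22 and 34.9 RPKM in the control, a ratio of 1.03 (0.973 to 1.09). CBP60E had 286 reads with flg22 and 254 in the control, or 3.98 RPKM with flg22 and 4.06 RPKM in the control, a ratio of 0.979 (0.824 to 1.16). CBP60D had 112 reads with flg22 and 108 in the control, or 1.49 RPKM with flg22 and 1.65 RPKM in the control, a ratio of 0.902 (0.686 to 1.19). All 3 intervals hold 1. Scaled to library totals and for counting error alone, that of CBP60C keeps the difference between these libraries under 1.09-fold. That of CBP60D, from few reads, would allow a level lower by 1.46-fold. The sign for CBP60E depends on the scaling, with log2 ratios between -0.03 and 0.01 over the settings tried.

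**Figure D2:**
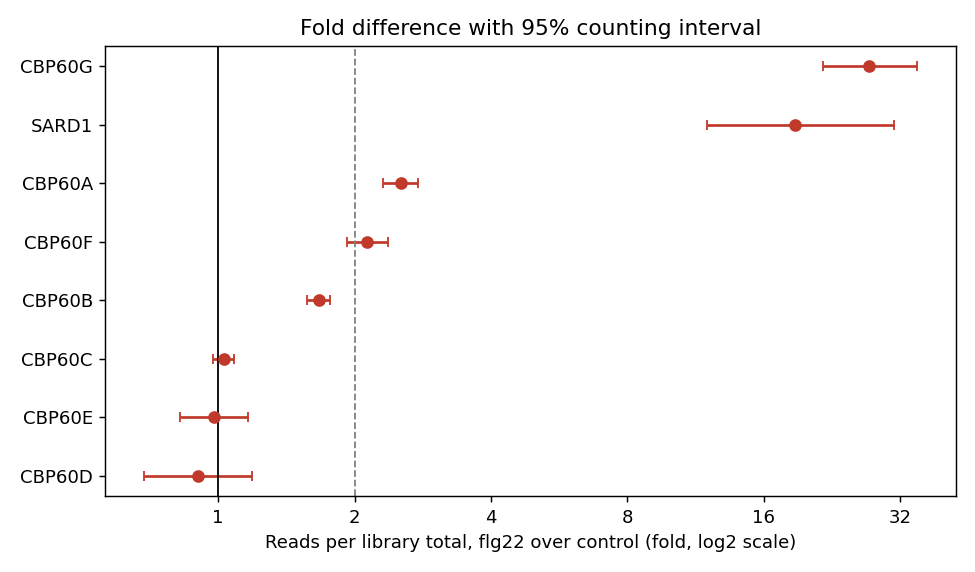
Fold of reads per library total, flg22 over control, for each family gene on a log2 axis, with exact 95% counting intervals as bars, a solid line at 1 and a dashed line at 2. CBP60G and SARD1 lie far to the right at 27.3 and 18.7, CBP60A, CBP60F and CBP60B between 2.53 and 1.67, and CBP60C, CBP60E and CBP60D at the line of equality.

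Closeness in coding sequence did not go with closeness in response in the 2 most alike pairs. CBP60B had a fold 1.85 times that of CBP60D (1.40 to 2.45), although these genes are the most similar in sequence. CBP60F had a fold 2.18 times that of CBP60E (1.78 to 2.66). In each pair the gene with the larger fold was also the more strongly expressed one in the control library. The pair CBP60G and SARD1, further apart in coding sequence than either of these, had the highest folds of the family. In the order of folds, neighbours from SARD1 down to CBP60C differed beyond counting error. CBP60A exceeded CBP60F by 1.19 times (1.04 to 1.36) and CBP60F exceeded CBP60B by 1.28 times (1.14 to 1.44). CBP60C, CBP60E and CBP60D could not be ordered, as the interval of each step holds 1.

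The order of levels in the family was different in the 2 libraries. With flg22 it ran CBP60B, CBP60C, CBP60G, CBP60A, CBP60F, SARD1, CBP60E and CBP60D, from high to low RPKM. In the control it ran CBP60C, CBP60B, CBP60A, CBP60F, CBP60E, CBP60D, CBP60G and SARD1. All neighbours in both orders differed beyond counting error. The smallest ratio was that of CBP60B over CBP60C with flg22, 1.11 (1.05 to 1.16), and the interval that came nearest to 1 was that of SARD1 over CBP60E with flg22, at 1.17 times (1.01 to 1.37). CBP60G held rank 3 with flg22 and rank 7 in the control, and SARD1 rank 6 with flg22 and rank 8 in the control. The highest member was 26.7 times the lowest with flg22 and 140 times in the control. Levels of different genes depend on the length column, which is headed exon length but for CBP60B, CBP60D, CBP60E, CBP60F, CBP60G and SARD1 lies nearer the whole gene span of TAIR10.1 than its joined exons. With joined exon lengths of the reference, CBP60G passes CBP60C with flg22, at 40.8 against 39.5 RPKM, and CBP60F passes CBP60A in the control, at 11.04 against 10.5 RPKM. The log2 ratio of SARD1 is then 2.58 in place of 2.18.

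Summed over the 8 genes, the family level was 162 RPKM with flg22 and 85.0 RPKM in the control. In reads scaled to equal library totals the family took 509.6 CPM with flg22 and 270.0 CPM in the control, a ratio of 1.89 (1.83 to 1.95). CBP60G alone accounted for 38.6% of the difference in summed RPKM, CBP60A for 21.1%, CBP60B for 20.8%, CBP60F for 12.8% and SARD1 for 5.77%. With joined exon lengths these parts were 40.5% for CBP60G, 22.1% for CBP60B, 16.6% for CBP60A, 12.9% for CBP60F and 7.12% for SARD1. CBP60G and SARD1 together made up 21.9% of the family level with flg22 and 1.62% in the control. CBP60B and CBP60C together made up 46.8% with flg22 and 69.1% in the control. The share of CBP60C was 22.2% with flg22 and 41.1% in the control, while its own level was nearly the same. Counted as reads, CBP60G took 18.5% of family reads with flg22 (Clopper-Pearson interval 17.8% to 19.2%) and 1.28% in the control (1.01% to 1.60%).

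**Figure D3:**
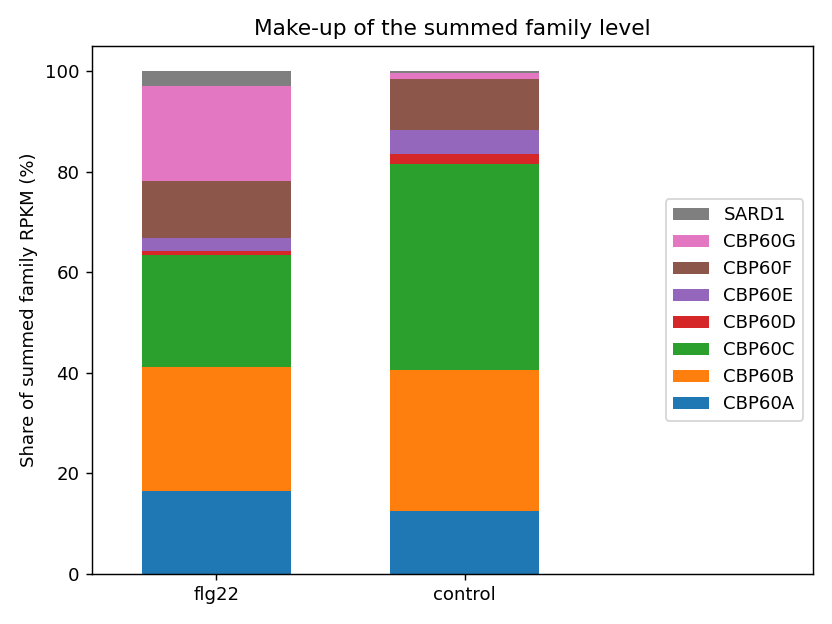
Share of the summed RPKM of the 8 family genes taken by each, in percent, with the flg22 library left and the control library right. The CBP60G segment is 19.0% with flg22 and 1.32% in the control, and the CBP60C segment 22.2% with flg22 and 41.1% in the control.

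The authors' deposited table holds its own comparison of the same 2 libraries, with log2 fold changes of flg22 over control. In the authors' deposited table CBP60G had a log2 fold change of 4.81 and a false discovery rate of 0.0181, and SARD1 4.27 and 0.0926. The 6 other members had a false discovery rate of 1 in the authors' deposited table, with log2 fold changes between -0.11 for CBP60D and 1.38 for CBP60A. With 1 library per group those values describe the libraries and cannot reflect spread between replicates.

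Genes of the pathway in which the family acts were taken from 8 lists with 57 genes, described by counts and medians beside the 11.3% and 8.27% of all genes. Among them WRKY54, PBS3, S3H, NIMIN1, PR2 and GRX480 passed the filter only through their level with flg22, and ICS2 only through that in the control, so these had to differ and the counts are descriptions. All 7 calmodulin genes, whose products many CBP60 proteins bind, had log2 ratios above 0. Their median was 0.44, beside -0.03 over all genes past the filter, and 1 was at least 2-fold higher. That gene was CAM2 (AT2G41110), at 164 RPKM with flg22 and 40.6 RPKM in the control. CAM5 (AT2G27030) and CAM1 (AT5G37780) followed at log2 ratios of 0.59 and 0.55. Calmodulin genes are close copies, and how reads were split between them is uncertain.

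The second list held 10 factors known to act on the CBP60G and SARD1 promoters or related to them, of which 2 passed 2-fold upward and 1 downward. Their median log2 ratio was 0.31. WRKY70 (AT3G56400), a factor that restrains SARD1, was 5.98-fold higher (4.87 to 7.40), and WRKY54 (AT2G40750), its close relative, 8.06-fold (4.32 to 16.7) from 102 reads with flg22 and 11 in the control. TGA1 (AT5G65210), an activator of both genes, was 2.34-fold lower with flg22 (2.18 to 2.51). CAMTA3 (AT2G22300), a repressor of both, was 1.74-fold higher (1.64 to 1.83).

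Of 6 genes for salicylic acid synthesis and transport, 3 lay above the 2-fold limit and 2 below it, around a median log2 ratio of 0.77. ICS1 (AT1G74710), the target shared by CBP60G and SARD1, stood at 10.11 RPKM with flg22 and 3.49 RPKM in the control, 2.90-fold higher (2.54 to 3.32). PBS3 (AT5G13320), which conjugates isochorismate to glutamate, was 8.17-fold higher (5.52 to 12.5), and the transporter gene EDS5 (AT4G39030) had a log2 ratio of 2.08. EDS5H (AT2G21340), a close relative of EDS5, was lower by 3.04-fold (2.71 to 3.41). The other lower gene, ICS2 (AT1G18870), was chosen after its value was seen, with a log2 ratio of -1.03.

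For N-hydroxypipecolic acid, the mobile signal of systemic resistance, 2 of 4 genes passed the filter and both were at least 2-fold higher. SARD4 (AT5G52810), a reductase gene of its synthesis, was 2.72-fold higher (2.33 to 3.18), and UGT76B1 (AT3G11340), which glycosylates the signal, 3.27-fold (2.97 to 3.60). The first and last enzyme genes of the synthesis, which missed the filter and were chosen after their values were seen, had few reads. ALD1 (AT2G13810) had 2 reads with flg22 and 7 in the control, and FMO1 (AT1G19250) had 51 reads with flg22 and 28 in the control, a ratio of 1.58 (0.980 to 2.61).

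Of 10 genes for salicylic acid perception 4 passed 2-fold upward and none downward, around a median log2 ratio of 0.73. They were led by NIMIN2 (AT3G25882), NPR2 (AT4G26120) and NIMIN1 (AT1G02450), with log2 ratios of 2.64, 1.95 and 1.80. The fourth, the receptor gene NPR3 (AT5G45110), was chosen after its value was seen, with a log2 ratio of 1.23. The receptor gene NPR1 (AT1G64280) was 1.96-fold higher (1.80 to 2.14). None of 9 genes of the EDS1 module of immune signalling passed 2-fold either way with 1 RPKM added, although the folds in reads were 2.06 for PAD4 (1.80 to 2.36) and 2.07 for ADR1 (1.75 to 2.45). All 9 had log2 ratios above 0, where all genes past the filter had a median of -0.03. The largest were 0.91 for PAD4 (AT3G52430), 0.84 for ADR1 (AT1G33560) and 0.81 for ADR1-L2 (AT5G04720). EDS1 with EDS1B and NRG1A with NRG1B are close copies whose reads may have been split unevenly. For salicylic acid turnover, none of the 4 genes past the filter reached 2-fold either way, with log2 ratios of -0.64 for UGT74F2 (AT2G43820), 0.42 for S3H (AT4G10500) and 0.32 for DMR6 (AT5G24530).

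Among 6 genes used as readouts of salicylic acid, 3 passed the filter and 1 was at least 2-fold higher with 1 RPKM added. GRX480 (AT1G28480), a glutaredoxin gene, was 23.98-fold higher (11.4 to 60.4). PR2 (AT3G57260) and PR5 (AT1G75040), pathogenesis-related genes, had log2 ratios of 0.67 and 0.27, and in reads PR2 was 2.24-fold higher (1.41 to 3.67). WRKY38 (AT5G22570) and WRKY62 (AT5G01900), transcription factor genes that missed the filter and were chosen after their values were seen, were 2.80-fold (1.29 to 6.73) and 4.93-fold higher (1.43 to 26.2). WRKY38 had 29 reads with flg22 and 9 in the control, and WRKY62 had 17 with flg22 and 3 in the control. PR1 (AT2G14610) had 2 reads with flg22 and 0 in the control, so no difference was detectable, since the floor of 3 reads stands for 0.140 CPM in the control library.

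**Figure D4:**
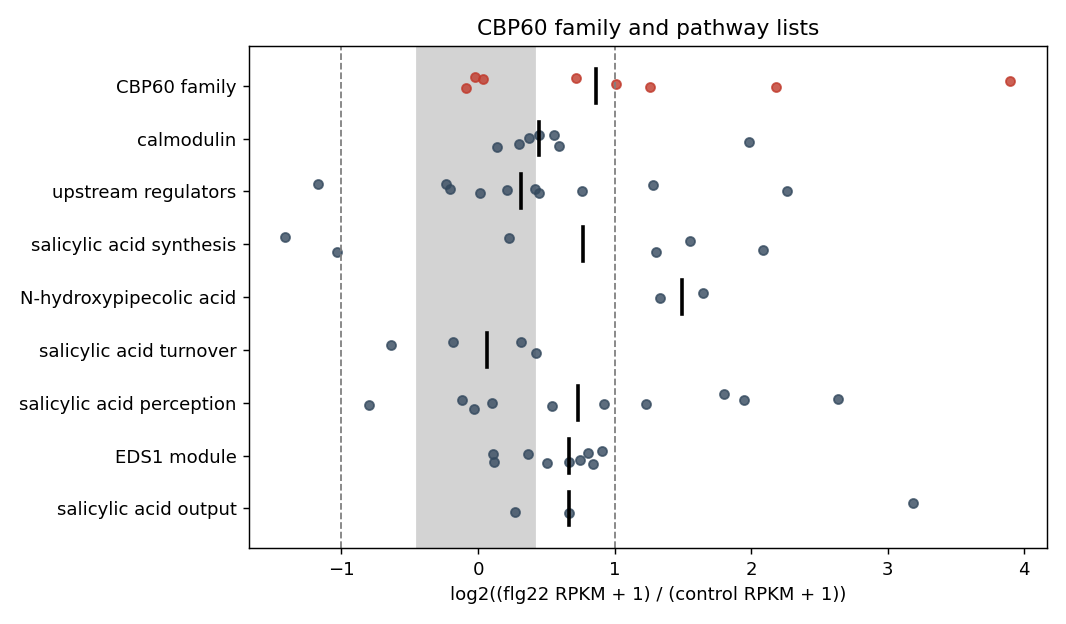
Log2 ratio of flg22 over control, with 1 RPKM added, for each gene past the filter in the CBP60 family and in 8 pathway lists; black bars are medians, the grey band runs between the quartiles of all genes past the filter (-0.44 to 0.42) and dashed lines mark 2-fold. CBP60G lies furthest right at 3.90, and the family median is 0.86.

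The genes nearest to CBP60G in level over the 2 libraries, measured as distance in the plane of log2(RPKM + 1), were NRT1.8 (AT4G21680), CYP94C1 (AT2G27690) and AT5G12340. NRT1.8, a nitrate transporter gene, stood at 29.8 RPKM with flg22 and 1.08 RPKM in the control, and CYP94C1, whose product inactivates jasmonate, at 29.2 RPKM with flg22 and 1.17 RPKM in the control. For SARD1 they were BBX32 (AT3G21150), DMP1 (AT3G21520) and ABO3 (AT1G66600), each with 5 reads in the control and between 96 and 123 with flg22. With only 2 libraries such likeness is a matter of 2 values per gene, and 21 genes lay within 0.2 of SARD1 and 4 within 0.2 of CBP60G.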

How the data were processed

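One flg22 and 1 control RNA sequencing library were used, each a pool of 3 biological replicates per the series' design text. The authors deposited read counts, RPKM, and their own log2 fold changes, p-values and FDR for 27416 genes, per the file headers. Bowtie, TopHat and DESeq are named, with no role, in the submitters' processing notes, and TAIR10 is named there as the genome build. How reads were counted is not given in the sources used here. A further 2 columns of per-library scaled counts stayed unused.

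Log2((flg22 + 1)/(control + 1)) was taken on deposited RPKM for genes averaging 1 RPKM or more. Folds are deposited reads over library totals. Intervals are exact at 95%: conditional binomial (Clopper-Pearson) for folds, level ratios and shares, Poisson for levels and conditional odds ratios for ratios of folds. Reads lack molecular identifiers, so intervals and the floor of 3 reads per library cover counting error only. The steps were tested on simulated data.

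Members and lists were chosen with earlier results of these data known. Genes named are all members, the 3 largest log2 ratios in size per list, ICS1, CAMTA3, NPR1, PR1, and the 3 genes nearest to CBP60G and to SARD1. Any other gene was named after its values were seen. The names CBP60B to CBP60F, and some list names, follow usage in the field.

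Sequences and models are from RefSeq TAIR10.1, which holds 26719 of the identifiers. The deposited table has no coordinates. Coding DNA (longest form per gene) was compared in place of proteins, with Biopython 1.88 in pairs and MAFFT 7.526 together. DESeq2 1.42.0 and edgeR 4.0.16 gave scaling factors for alternatives, with no test.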

Additional observations from a re-analysis of the deposited data

How the results depend on the processing

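No test was possible with 1 library per group, so only sizes can depend on the processing, and leaving out a library was not possible. No paired analysis was possible because each group has a single library. In the family, CBP60A, CBP60B, CBP60C, CBP60F, CBP60G and SARD1 had log2 ratios above 0 and CBP60D below 0 under the main and 7 other settings; CBP60E ranged between -0.03 and 0.01. Adding 5 RPKM instead of 1, the family had 2 members at least 2-fold higher, CBP60A and CBP60G (7.43% of all genes). The family median was then 0.71, and SARD1 dropped to 0.88. At a 4-fold limit with 1 RPKM added, the 2 members were CBP60G and SARD1 (4.17%). Over these settings the log2 ratio of CBP60G ran between 2.54 and 4.76 and that of SARD1 between 0.88 and 4.19. The lowest value of each came with 5 RPKM added and the highest with CPM and 0.5 reads added. With 5 RPKM added, genes at least 2-fold higher numbered 1 of the upstream regulators, 1 for salicylic acid synthesis and 2 for its perception, and 0 upstream regulators and 0 synthesis genes were at least 2-fold lower. With 0.1 RPKM added, and with CPM and 0.5 reads added, 2 genes of the EDS1 module and 2 salicylic acid readouts were at least 2-fold higher. Scaling by DESeq2 or edgeR factors, centring on the median of all genes and joined exon lengths moved no count of genes by over 1.5 times. Depth limits SARD1, with 20 control reads, and CBP60D most.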
